A study of Mus musculus with 2 samples.

Results

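The 9 genes described here encode proteins that move water, sodium, bicarbonate and urea across epithelial membranes, or that interconvert carbon dioxide and bicarbonate. They were chosen by name: Aqp3, Aqp4, Aqp5, Scnn1a, Scnn1b, Slc14a1, Slc4a4, Car2 and Car12, out of 31053 genes in the count tables. The urothelium lines the bladder and is known as a tight barrier between urine and blood. Its surface cells carry plaques of uroplakin proteins, and the basal and intermediate cells beneath them renew it. Aquaporins are membrane channels for water, and Aqp3 also passes glycerol and urea. The epithelial sodium channel is built from subunits encoded by Scnn1a, Scnn1b and Scnn1g and takes up sodium at the apical membrane. Slc14a1 encodes a facilitative urea transporter known from red cells and urothelium. Slc4a4 encodes a sodium bicarbonate cotransporter, and carbonic anhydrases such as cytosolic Car2 and membrane-bound Car12 supply or consume its bicarbonate.

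The cells came from organoids grown from the normal urothelium of WT C57BL/6 mice of 8 to 10 weeks. Proliferative organoids (P) were kept in complete medium with EGF, LY2157299 (an inhibitor of the TGF-beta receptor), Noggin, WNT3A and RSPO1. In differentiated organoids (D) these factors were withdrawn. Cells were not sorted, and 1 droplet library was made per condition from 10000 loaded cells, so that a difference between conditions cannot be told apart from a difference between 2 libraries. No test between conditions was possible, and the sources used here do not say how many mice each library holds.

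The kept cells, with over 800 genes and at most 12% mitochondrial UMIs (unique molecular identifiers, which count captured transcripts), numbered 6818 in P and 4896 in D. Their median was 3405.5 UMIs per cell in P and 3227.5 in D, and 6 barcodes occurred among the kept cells of both libraries. Per 1000000 UMIs (CPM), the 5 uroplakin genes gave 20.5 in P against 1245 in D. The 7 basal genes together stood at 6021 (P) and 8292 (D). The keratins Krt5 (3534 and 3954) and Krt14 (1783 and 3736), Itgb4 (73.4 and 84.3) and Cd44 (96.4 and 104) were higher in D. Higher in P were Trp63 (149 and 77.8), Itga6 (144 and 125) and Col17a1 (242 and 211). The summed level of 10 hypoxia genes was 2926 CPM in P and 536 in D, and that of 9 early-response and heat shock genes raised by dissociation was 1271 and 2576. All levels below are CPM of the library or cell group. Each bracket gives a 95% interval that covers counting error only. The median gene with at least 100 UMIs in each library stood 0.42 higher in D on the log2 scale.

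Of the 9 genes, 8 had at least 100 UMIs over both libraries. Among these, D exceeded P by 2-fold or more for Slc4a4 and Scnn1a, and P exceeded D by as much for Car12, Scnn1b and Aqp4. The same 2 and 3 genes were called after the median shift was removed. Of 10719 genes with that many UMIs, 13.5% were called higher in D and 4.73% higher in P, and with the shift removed 5.64% and 8.65%. The median log2 ratio of D over P was -0.18 for the 8 genes and 0.41 over all genes tested. Aqp3, Slc14a1 and Car2 lay within 2-fold.

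**Figure D1:**
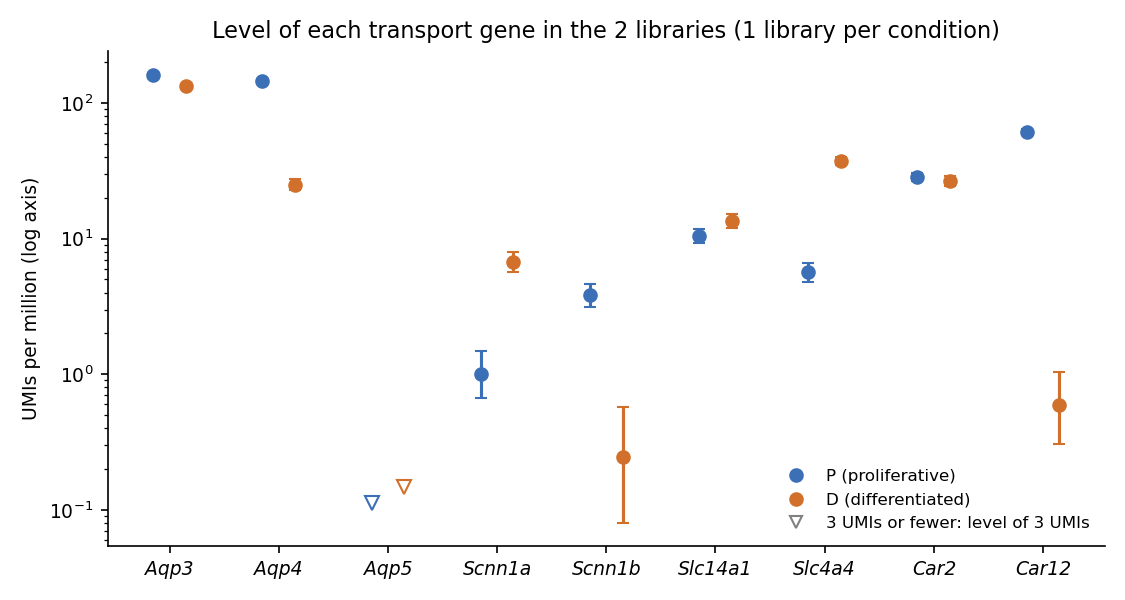
Level of the 9 genes in CPM (log axis) in P (blue) and D (orange), with 95% counting intervals, 1 library each; open triangles mark a gene with 3 UMIs or fewer at the level 3 UMIs would give. Car12, Aqp4 and Scnn1b stand apart with P higher, Slc4a4 and Scnn1a with D higher, and Aqp5 is at the floor in both.

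The sequences just before the start of transcription are shown for Car12, Scnn1b and Slc4a4, which differed by over 2-fold between the libraries, and for Aqp3, the gene found in most cells. They are not shown for Scnn1a and Aqp4, which also differed by over 2-fold. They are the 100 bases before the start, from RefSeq on GRCm38.p6, written 5′ to 3′ on the strand of the gene. Capitals mark matches to a TATA box (TATAAA) or to a GC box (GGGCGG), on either strand.
Aqp3, chr4:41098184-41098283, minus strand: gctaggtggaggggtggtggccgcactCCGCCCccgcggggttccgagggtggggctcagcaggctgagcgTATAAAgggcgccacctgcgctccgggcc
Scnn1b, chr7:121864938-121865037, plus strand: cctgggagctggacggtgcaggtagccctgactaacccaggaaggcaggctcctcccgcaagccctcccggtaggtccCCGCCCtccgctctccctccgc
Slc4a4, downstream start, chr5:89027866-89027965, plus strand: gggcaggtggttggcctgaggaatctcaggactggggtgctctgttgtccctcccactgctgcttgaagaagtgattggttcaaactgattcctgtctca
Car12, chr9:66713586-66713685, plus strand: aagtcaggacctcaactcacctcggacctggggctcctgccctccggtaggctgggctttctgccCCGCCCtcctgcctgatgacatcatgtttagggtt
Of these, only the Aqp3 window held a TATA box, 29 bases before the start, and a TATA box occurred in the 250 bases before 12.4% of 32851 listed starts. The GC box lay 73 bases before the start in Aqp3, 22 in Scnn1b and 35 in Car12, and 32.7% of all starts had such a match. The hypoxia response core ACGTG, present before 16.6% of starts, was not found in the 250 bases before the Aqp3, Scnn1b, Slc4a4 or Car12 starts. Among the windows examined, only that of Aqp5 held it. A match of letters is a description of the window and not a binding site. Windows were examined for 5 of the 9 genes, with 6 starts. Aqp4 and Slc14a1 were left out beforehand, and no start was listed for Car2 and Scnn1a. The windows of Aqp5 and of the upstream Slc4a4 start lie in annotated exons and are not shown.

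Among the water channels, Aqp3 (ENSMUSG00000028435, chr4:41092722-41098183 on the minus strand) was detected in the most cells. It had 4283 (P) and 2712 (D) UMIs, or 161 [156, 165] and 134 [129, 139] CPM. The log2 ratio of D over P was -0.27 [-0.34, -0.20], a difference that exceeds counting error and is smaller than 2-fold. With every cell thinned to 2100 UMIs, 26.3% of 6638 cells in P and 21.7% of 4417 cells in D held an Aqp3 UMI. Without thinning the shares were 40.8% and 33.7%. The lowest share in any cluster was 8.51%, within D.

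Aqp4 (ENSMUSG00000024411, chr18:15389496-15410982, minus strand), the water channel best known from brain and kidney, differed far more between the libraries. It had 3857 (P) and 508 (D) UMIs. The levels were 145 [140, 149] and 25.02 [22.9, 27.3] CPM, 5.78-fold [5.27, 6.35] higher in P. An Aqp4 UMI was found in 18.7% of thinned cells in P and in 4.69% in D (27.7% and 7.39% without thinning). The glial markers Gfap and Slc1a2 had 1 UMI each in P, and 1 and 0 in D. Aqp4 overlaps an annotated antisense gene that is not in the count tables.

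Aqp5 (ENSMUSG00000044217, chr15:99590782-99594829, plus strand), a water channel of secretory glands and lung, was not detectable at this depth as an expressed gene. It had 0 (P) and 2 (D) UMIs. None of 6638 thinned cells in P held it, which at the floor of 3 counts allows a share of up to 0.0452% of cells with a UMI, and 1 of 4417 in D did. This limits cells with a UMI and not cells that express the gene. Both counts are at or under the floor of 3, so no ratio is given. Of the other aquaporins of fixed interest, Aqp1 had 1 UMI in P and 0 in D, Aqp2 had 0 in both, Aqp7 had 9 and 3, and Aqp9 had 3 and 4. Aqp11, named after its values were seen, had 48 and 39. None of the 8 other aquaporins listed reached 100 UMIs.

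The sodium channel subunits went in opposite directions. Scnn1a (ENSMUSG00000030340, chr6:125320659-125344943, plus strand), the alpha subunit, had 27 (P) and 137 (D) UMIs, or 1.01 [0.667, 1.47] and 6.75 [5.66, 7.98] CPM. It was 6.67-fold [4.39, 10.5] higher in D. Scnn1b (ENSMUSG00000030873, chr7:121865038-121918514, plus strand), the beta subunit, had 102 (P) and 5 (D) UMIs. Its levels were 3.82 [3.12, 4.64] and 0.246 [0.0800, 0.575] CPM, 15.5-fold [6.44, 48.8] higher in P. The gamma subunit Scnn1g had 22 (P) and 12 (D) UMIs, with a log2 ratio of -0.48 [-1.63, 0.60] that cannot be told from 0 at this depth.

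Subunits of the channel were rarely seen in the same cell. In P, 11 thinned cells held Scnn1a and 62 held Scnn1b, and none held both, where the product of the shares gives 0.103 cells. Joint detection was not detectable at this depth. Scnn1b overlaps Cog7 on the opposite strand, and Cog7 had 327 (P) and 274 (D) UMIs. The strand setting of the counting is not given in the sources used here.

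Slc14a1 (ENSMUSG00000059336, chr18:78100091-78142119, minus strand), the urea transporter, was at a similar level in both libraries. It had 281 (P) and 275 (D) UMIs, or 10.5 [9.34, 11.8] and 13.5 [11.99, 15.2] CPM. The log2 ratio was 0.36 [0.12, 0.61], and with the median shift removed it was -0.06, so that its direction depends on the scaling. A UMI was found in 2.09% of thinned cells in P and in 2.38% in D. The related Slc14a2 had 0 and 2 UMIs. Of the red cell genes, Hba-a1, Hba-a2, Hbb-bs and Hbb-bt were at 0 in both libraries.

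Slc4a4 (ENSMUSG00000060961, chr5:88886818-89239653, plus strand), the sodium bicarbonate cotransporter, was higher in D. It had 151 (P) and 759 (D) UMIs, or 5.66 [4.79, 6.64] and 37.4 [34.8, 40.1] CPM. The ratio was 6.60-fold [5.54, 7.92]. In thinned cells it was found in 0.844% in P and 5.98% in D (1.97% and 10.7% without thinning).

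The carbonic anhydrases differed from each other. Car2 (ENSMUSG00000027562, chr3:14886273-14900770, plus strand), the cytosolic enzyme, had 758 (P) and 540 (D) UMIs. Its levels of 28.4 [26.4, 30.5] and 26.6 [24.4, 28.9] CPM could not be told apart by counting error, with a log2 ratio of -0.10 [-0.26, 0.07]. Car12 (ENSMUSG00000032373, chr9:66713686-66766845, plus strand), whose catalytic domain faces the outside of the cell, had 1629 (P) and 12 (D) UMIs. The levels were 61.1 [58.1, 64.1] and 0.591 [0.305, 1.03] CPM, 103-fold [59.0, 200.4] higher in P. It was found in 12.04% of thinned cells in P and 0.158% in D. Car9, another membrane-bound member, had 25 and 8 UMIs, and cytosolic Car13 had 838 and 254, with a log2 ratio of -1.33 [-1.54, -1.12].

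Cells were then grouped within each library, with the 9 genes and 84 other transport genes left out of the clustering. In P, cluster P0 (2571 cells) was led by Ctla2a, Nbl1, Scnn1b, Sparc and Ptprz1, and 5 of 7 basal genes were raised in it. Cluster P1 (2567 cells) was led by Sprr3, Cnfn, Sprr2f, Psca and Rptn. In it, 9 of 9 intermediate genes, 7 detected squamous genes and 3 detected uroplakins were raised. Cluster P2 (1332 cells) was led by Fmo2, Mmp7, Slc7a11, Agr2 and Cyp1b1, and cluster P3 (348 cells) by Ccna2, Hmmr, Nusap1, Ccnb1 and Aspm, with 12 of 12 proliferation genes raised. In D, cluster D0 (2661 cells) was led by Ces1d, Agr2, Tspan1, AC135964.2 and Lgi2, and cluster D1 (1483 cells) by Cav1, Tgfbi, Acta2, Htra1 and Sparc, with 6 of 7 basal genes raised. Cluster D2 (752 cells) was led by Ifit1bl1, Ubd, Ankrd1, Ppbp and Krt23, with all 5 uroplakins raised and 2 of them among its 10 leading genes, and is called luminal-like. Leading basal markers were not found in P0 or D1, so these keep their numbers. The deepest clusters were P1 and D2, with medians of 4238 and 4284.5 UMIs per cell. With 1 library per condition a cluster may also be a feature of its library.

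Aqp3, Aqp4, Slc4a4 and Car2 shared their highest cluster in P, the squamous and intermediate gene-rich P1. Aqp4 stood at 249 [241, 258] CPM in P1, 112 in P2, 41.3 in P3 and 14.2 in P0, a 17.6-fold range. P1 held 82.3% of all Aqp4 UMIs of P, and 36.1% of its thinned cells had one, against 2.91% in P0. Slc4a4 stood at 10.8 [9.10, 12.8] in P1 and between 0.766 and 1.27 in the other clusters, and 91.4% of its UMIs in P were in P1. Car2 stood at 43.1 [39.6, 46.9] in P1, 30.5 in P3, 14.1 in P2 and 12.4 in P0, where P2 and P0 lay within each other's intervals.

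Car12 had the reverse order in P. It stood at 102 [92.9, 112] CPM in P2, 102 in P3 and 98.6 [91.8, 106] in P0, which could not be told apart, and at 18.4 [16.1, 20.9] in P1. Scnn1b was concentrated in P0, with 10.6 [8.44, 13.1] CPM and 81.4% of its UMIs, and was among the 5 leading genes of that cluster although it was not used to form it. P3 had 4.45 [1.79, 9.16], and P1 and P2 had 10 and 2 UMIs. Slc14a1 was highest in P3, the cluster of proliferation genes, with 27.9 [20.3, 37.5] CPM against 6.75 [5.40, 8.34] in P1. Aqp3 went from 113 in P0 to 191 in P1, a 1.69-fold range. Scnn1a had 1 to 10 UMIs per cluster in P, too few to order.

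**Figure D2:**
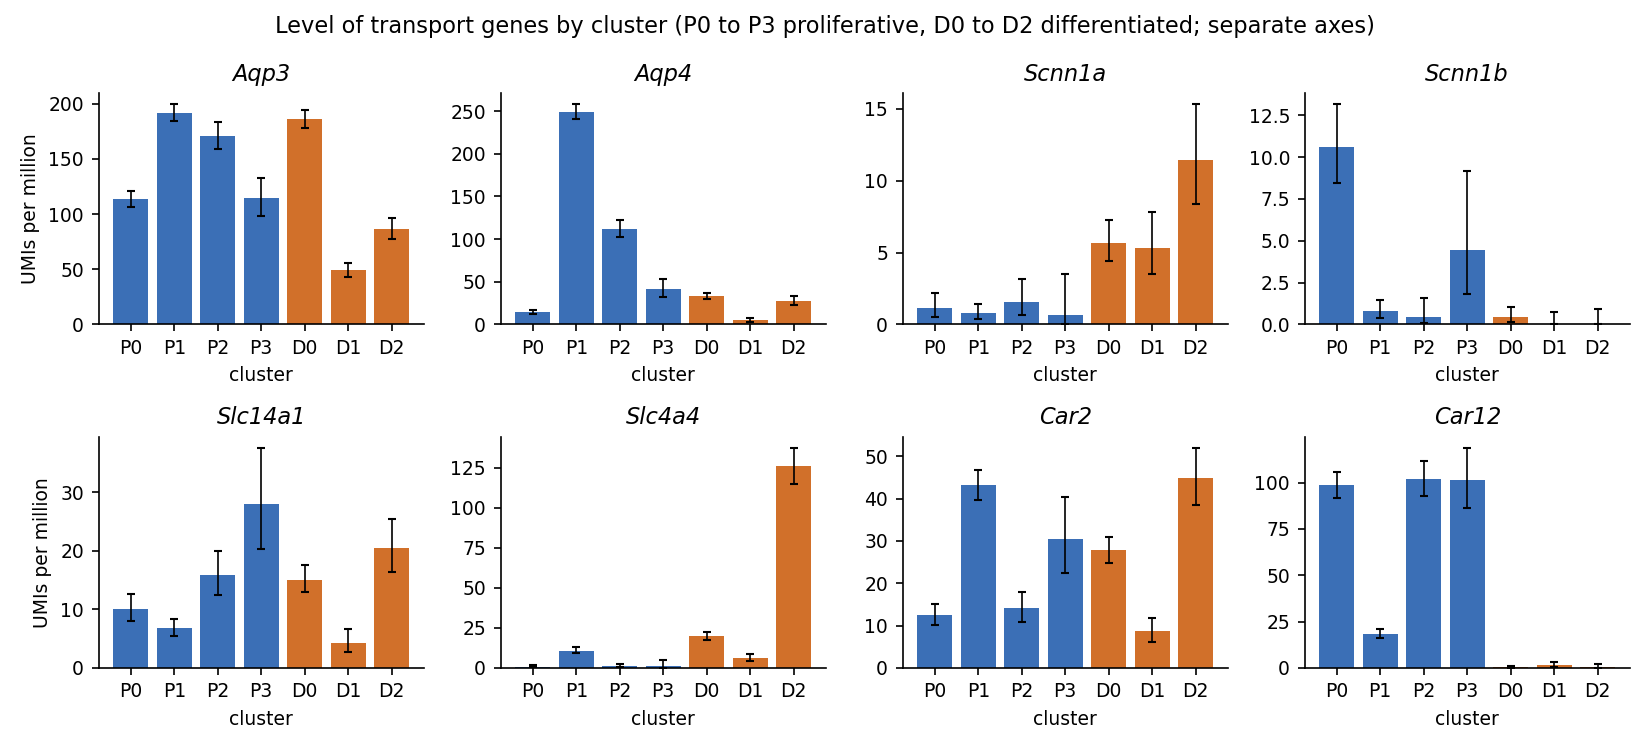
Level of 8 genes (CPM, bars from 0, separate axes) in the 4 clusters of P (blue) and the 3 clusters of D (orange), with 95% counting intervals. Aqp4 peaks in P1 and Slc4a4 in D2, Car12 is near 100 CPM in P0, P2 and P3 and low in P1 and all of D, and Scnn1b is mostly in P0.

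In D, Slc4a4, Car2, Scnn1a and Slc14a1 were highest in the luminal-like cluster D2. Slc4a4 stood at 126 [115, 137] CPM in D2, 19.7 [17.2, 22.4] in D0 and 5.96 [3.99, 8.56] in D1, and 22.9% of thinned D2 cells had a UMI. Car2 stood at 44.9 [38.6, 52.0], 27.8 [24.8, 31.0] and 8.63 [6.22, 11.7] in the same order. Scnn1a had 11.5 [8.40, 15.3] in D2 and 5.69 and 5.34 in D0 and D1, which overlapped. Slc14a1 had 20.5 [16.3, 25.4] in D2, 15.04 [12.9, 17.5] in D0 and 4.32 [2.67, 6.60] in D1.

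The aquaporins of D did not follow that order. Aqp3 was highest in D0, at 186 [178, 194] CPM, with 86.6 [77.7, 96.2] in D2 and 48.9 [42.9, 55.6] in D1. D0 held 78.4% of its UMIs. Aqp4 had 32.7 [29.5, 36.2] in D0 and 27.9 [23.0, 33.6] in D2, which overlapped, and 4.52 [2.83, 6.85] in D1. The 2 Aqp5 UMIs and the 5 Scnn1b UMIs of D were all in D0. D1 was the lowest cluster of D for Aqp3, Aqp4, Slc14a1, Slc4a4 and Car2, and for Scnn1a it overlapped D0. Scnn1b was at 0 in both D1 and D2, and Car12 had 7 of its 12 UMIs in D1. The share of all genes that were lowest in D1 was not counted, so this is no trait of transport genes. D1 also had the lowest median depth, 2733 UMIs per cell, and most of the fibroblast marker UMIs of D (1054 of 1270, of which Dcn gave 1234). That list stood at 1.99 CPM in P and 62.5 in D. Of its other genes, Col1a1 had 0 (P) and 10 (D) UMIs, Col3a1 had 0 and 19, and Col1a2 had 0 in both. Lum had 7 and 1, and Pdgfra had 6 and 6, so the higher level in D came almost only from Dcn. The part of depth and of cells with these transcripts in the low levels of D1 was not tested.

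Scores over fixed lists described cell states without clusters. In each library, thinned cells high for 7 basal genes were set against cells low for them. Aqp4 was lower in basal-high cells in both libraries, by log2 ratios of -2.71 [-2.98, -2.45] in P and -2.19 [-3.07, -1.40] in D. So was Slc4a4, at -5.32 [-10.66, -2.76] in P, where the basal-high cells held 1 UMI, and -3.98 [-4.95, -3.14] in D. Car2 was lower by -0.89 [-1.35, -0.45] in P and -3.67 [-4.77, -2.75] in D. Car12 was higher in the basal-high cells of P, at 0.92 [0.65, 1.20], as was Scnn1b, at 1.66 [0.59, 2.86]. The median over all genes tested was 0.10 in P and 0.06 in D. A class made from such a score is a range of cells and not a type: 257 cells in P and 52 in D lay at the upper limit. With limits at the 10th and 90th percentiles the signs of the ratios that could be computed held and several were larger, at -3.70 for Aqp4, 3.17 for Scnn1b and 1.61 for Car12 in P and -5.77 for Slc4a4 in D.

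**Figure D3:**
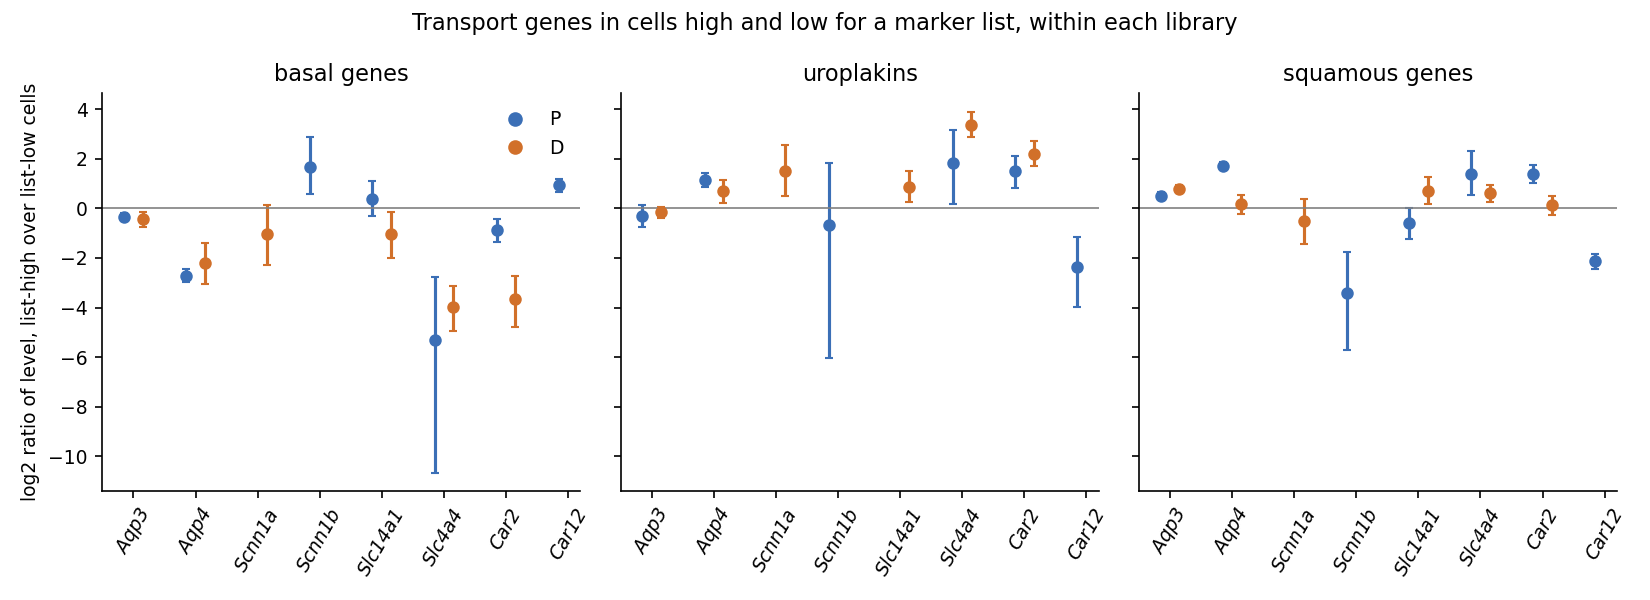
Log2 ratio of each gene's level between cells high and low for basal genes, uroplakins or squamous genes, in P (blue) and D (orange), with 95% counting intervals; genes with under 20 UMIs in both groups together, or with 0 in either, are not drawn. Aqp3, Aqp4, Slc4a4 and Car2 lie below 0 for basal genes in both libraries, and Car12 lies below 0 for squamous genes and uroplakins in P.

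Against the uroplakins, the markers of luminal cells, Slc4a4 showed the steepest gradient in D. In thinned D cells with 0, 1, 2 to 4, and 5 or more uroplakin UMIs, its level was 9.18, 16.7, 44.9 and 124 CPM. The 638 cells with 5 or more held 166 Slc4a4 UMIs, and the 2074 cells with none held 40. Car2 stood at 11.02, 28.4, 37.2 and 54.5 in the same cells. Scnn1a stood at 3.44, 4.32, 5.10 and 12.7, where the first 3 overlapped. Slc14a1 had 10.6 [7.73, 14.1] in the cells with none and 18.7 [12.1, 27.5] in those with 5 or more, intervals that overlap. Aqp3 had a peak in between, with 123, 176, 136 and 98.5, and Aqp4 had 19.1, 30.3, 35.2 and 29.1. Between cells with 3 or more uroplakin UMIs and cells with none, the log2 ratio in D was 3.38 [2.89, 3.90] for Slc4a4, 2.20 [1.71, 2.72] for Car2, 1.51 [0.51, 2.55] for Scnn1a and 0.86 [0.24, 1.49] for Slc14a1, and -0.16 [-0.38, 0.06] for Aqp3.

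**Figure D4:**
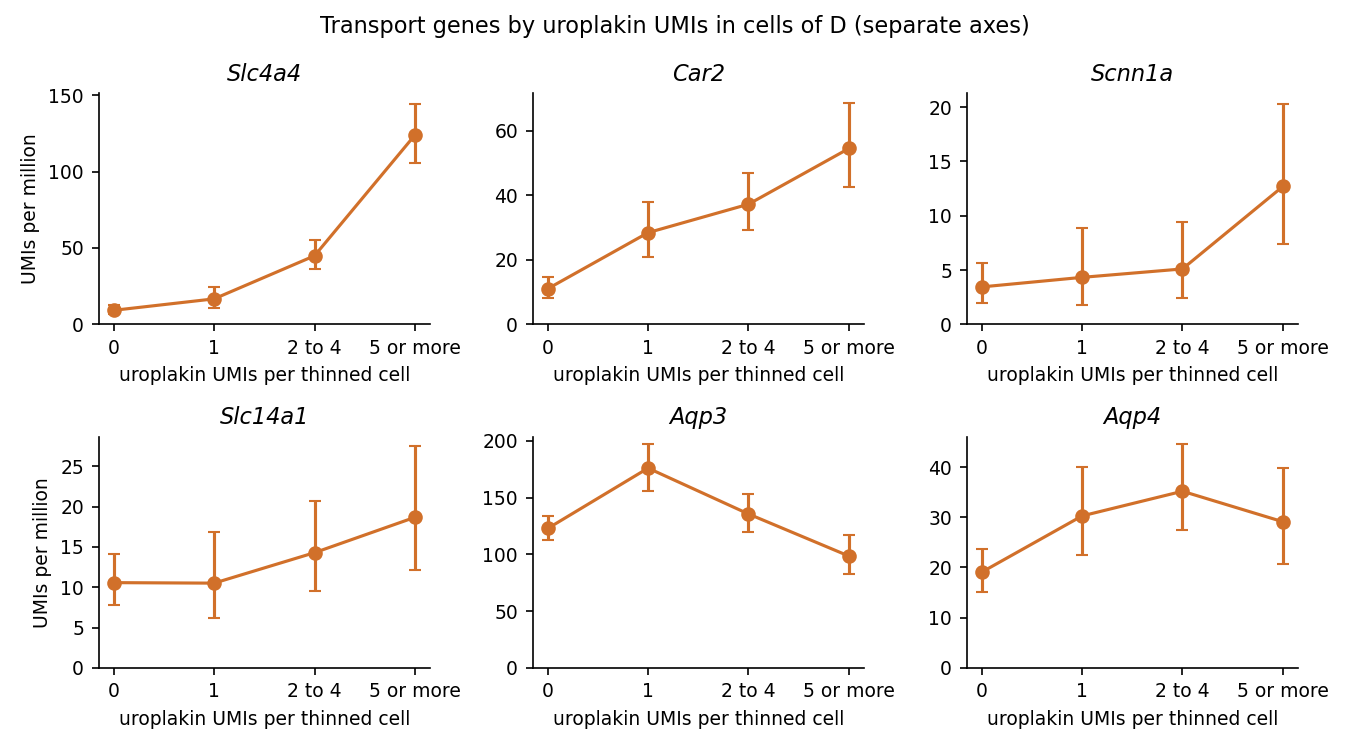
Level of 6 genes (CPM, axes from 0) in D cells thinned to equal depth, grouped by the number of uroplakin UMIs per cell (0, 1, 2 to 4, 5 or more), with 95% counting intervals. Slc4a4 goes from 9.18 to 124 and Car2 from 11.02 to 54.5, whereas Aqp3 is highest at 1 uroplakin UMI.

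Uroplakin UMIs were rare in P, with 171 of 6638 thinned cells having any. In these cells Aqp4 stood at 276 CPM against 124 in the rest (log2 1.15 [0.84, 1.44]), Car2 at 64.0 against 22.5 (1.51 [0.83, 2.12]) and Car12 at 13.9 against 72.0 (-2.37 [-4.00, -1.14]). Before thinning, P1 held 483 of the 548 uroplakin UMIs of P, so this contrast overlaps with that between P1 and the other clusters. Cells of P high for squamous genes had more Aqp4 (1.72 [1.56, 1.88]), Car2 (1.37 [1.005, 1.73]) and Slc4a4 (1.39 [0.52, 2.30]), and less Car12 (-2.14 [-2.45, -1.84], or -3.86 at the 10th and 90th percentiles) and Scnn1b (-3.40 [-5.73, -1.78]). In D the squamous contrast of Aqp4 was 0.17 [-0.21, 0.54] and that of Aqp3 was 0.79 [0.62, 0.96]. Slc14a1 was higher in P cells with a proliferation UMI, by 0.89 [0.29, 1.46], and in D that ratio was 0.74 [-0.30, 1.64].

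The hypoxia list, higher in P than in D, also varied among the cells of P. By cluster it stood at 3344 CPM in P1, 3014 in P0, 2151 in P3 and 1869 in P2. In the same order Car12 stood at 18.4, 98.6, 102 and 102 CPM, so the 2 did not follow one order over the clusters. Car12 was lower in the hypoxia-high cells of P, with 42.9 against 86.0 CPM (log2 -1.003 [-1.28, -0.73]). Slc14a1 was lower too, by -1.49 [-2.28, -0.77], and Slc4a4 was higher, by 2.58 [1.37, 4.01]. In D, where the list was low, the Slc4a4 contrast was -0.09 [-0.48, 0.29] and that of Slc14a1 was 0.18 [-0.52, 0.87]. The part of hypoxia in the library differences was not tested.

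The libraries were next compared within cell classes. The basal-high class was cut within each library, at 17 list UMIs or more per thinned cell in P and 28 or more in D, so that it is not the same range in both. The class without a uroplakin UMI took 6467 of 6638 thinned cells in P but 2074 of 4417 in D. It is nearly all of P and a part of D, and the share of this cut in the ratios was not tested. Among cells without a uroplakin UMI, Car12 had a log2 ratio of D over P of -6.29 [-8.17, -4.93], Aqp4 of -2.71 [-3.04, -2.39] and Scnn1a of 2.23 [0.98, 3.54]. Slc4a4 was at 1.23 [0.60, 1.85] in these cells, against 3.06 [2.65, 3.49] over all thinned cells, and at 4.32 [1.56, 9.74] in basal-high cells, from 1 UMI in P and 12 in D. Car2, which over all thinned cells could not be told apart between the libraries (0.14 [-0.11, 0.38]), was lower in D in the cells without a uroplakin UMI, at -1.03 [-1.50, -0.58], and in basal-high cells, at -1.94 [-3.07, -0.97]. Slc14a1 was at -0.05 [-0.56, 0.44] without a uroplakin UMI. In basal-high cells (1841 in P, 1105 in D), Aqp3 was at -0.89 [-1.15, -0.63] and Car12 at -5.53 [-7.42, -4.16], and Scnn1b had 30 (P) and 0 (D) UMIs. The median over all genes was 0.42 in cells without a uroplakin UMI and 0.38 in basal-high cells.

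At 2100 UMIs per cell, 48.5% of P cells and 64.5% of D cells held none of the 9 genes, and 38.6% and 30.5% held 1 of them. In P, 71 cells held both Aqp4 and Car12, where the product of their shares gives 149. Within cluster P1 the count was 18 against 22.0, within P2 it was 33 against 40.9, and within P0 it was 17 against 12.7. Aqp4 and Car2 were found together in 93 cells of P against 55.4, and within P1 in 79 against 69.7. In D, 22 cells held both Slc4a4 and Car2 against 13.0, and within D2 the count was 15 against 14.9. All cells compared had the same depth.

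Likeness of pattern was measured as Pearson r of log2(level + 1) over 22 finer clusters, 10 of P and 12 of D, as a description; clusters of 1 library share its depth and composition. The 3 most alike genes of Aqp4 were Hs3st1 (r = 0.91), Sgms2 (0.91) and Tmprss11e (0.91). For Car12 they were Eif4b (0.95), Fbln1 (0.92) and Rpl13a (0.92), and ribosomal protein transcripts took 32.4% to 40.3% of the UMIs in clusters of P and 16.8% to 21.4% in those of D. For Slc4a4 they were Timm8b (0.93), Sowaha (0.92) and Trappc2l (0.91), for Scnn1b Nrg2 (0.90), Ramp3 (0.89) and Mgp (0.85), and for Scnn1a Kctd2 (0.90), Cdk6 (0.88) and Scai (0.85). Aqp3 was most like Prom2, Osgin1 and Cmbl (0.83 to 0.84), Slc14a1 most like Dhcr7 (0.86), Tatdn3 and Lysmd2 (both 0.80), and Car2 most like Eps8 (0.83), Areg (0.82) and Cxcl5 (0.81). Among the 9 genes, Aqp3 and Aqp4 had an r of 0.85 over the clusters of P and 0.68 over those of D, and Slc4a4 and Car12 had -0.83 and -0.27.

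The wider set held 84 other genes of water, sodium, chloride, potassium, bicarbonate, proton and urea transport, of which 40 had at least 100 UMIs. Of these, 15 passed 2-fold toward D, 3 toward P, and 22 were neither (37.5% and 7.5% of the 40, beside 13.5% and 4.73% of all genes tested). With the median shift removed the counts were 7 and 4. The median log2 ratio of the 40 was 0.45, beside 0.41 over all genes. Of the chloride channels and cation chloride cotransporters, 5 of 7 were higher in D, as were 3 of 6 sodium channel regulators 3 of 5 bicarbonate and anion transporters, 2 of 4 potassium channels, 1 of 6 stretch and osmotic sensing channels, 0 of 3 carbonic anhydrases and 0 of 3 sodium proton exchange genes. With the shift removed the first 3 of these counts were 3, 2 and 0, beside 5.64% of all genes.

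Of the genes named by the size of their ratio, 5 lay toward D: Atp1b1, Clca3a2, Sgk1, Slc12a2 and Nr3c2. Of the sodium pump genes, 1 of 5 was called higher in D and 1 higher in P. Atp1b1, a beta subunit of the sodium pump, had 288 (P) and 5093 (D) UMIs (log2 4.54 [4.37, 4.71]). Atp1b3, an alternative beta subunit, had 5423 and 2662 (-0.63 [-0.70, -0.57]). Clca3a2, of the calcium-activated chloride channel regulator family, had 107 and 736 UMIs (3.18 [2.88, 3.48]), and its reads may be shared with close paralogs. Slc12a2, the sodium potassium chloride cotransporter, had 568 and 1993 (2.20 [2.07, 2.34]).

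Sgk1, a kinase known to raise sodium channel activity, had 1470 and 5987 UMIs (2.42 [2.34, 2.50]), and Nr3c2, the mineralocorticoid receptor, had 30 and 87 (1.93 [1.32, 2.58]). Dissociation genes were also higher in D, from 1271 to 2576 CPM, and their part in the Sgk1 level was not tested. Toward P, Arg1, the arginase that forms urea, had 8588 and 27 UMIs (-7.92 [-8.52, -7.38]). Fxyd5, a regulator of the sodium pump, had 183 and 36 (-1.95 [-2.51, -1.43]), and Car8, a carbonic anhydrase relative without the activity, had 75 and 44 (-0.38 [-0.95, 0.18]), an interval that includes 0.

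**Figure D5:**
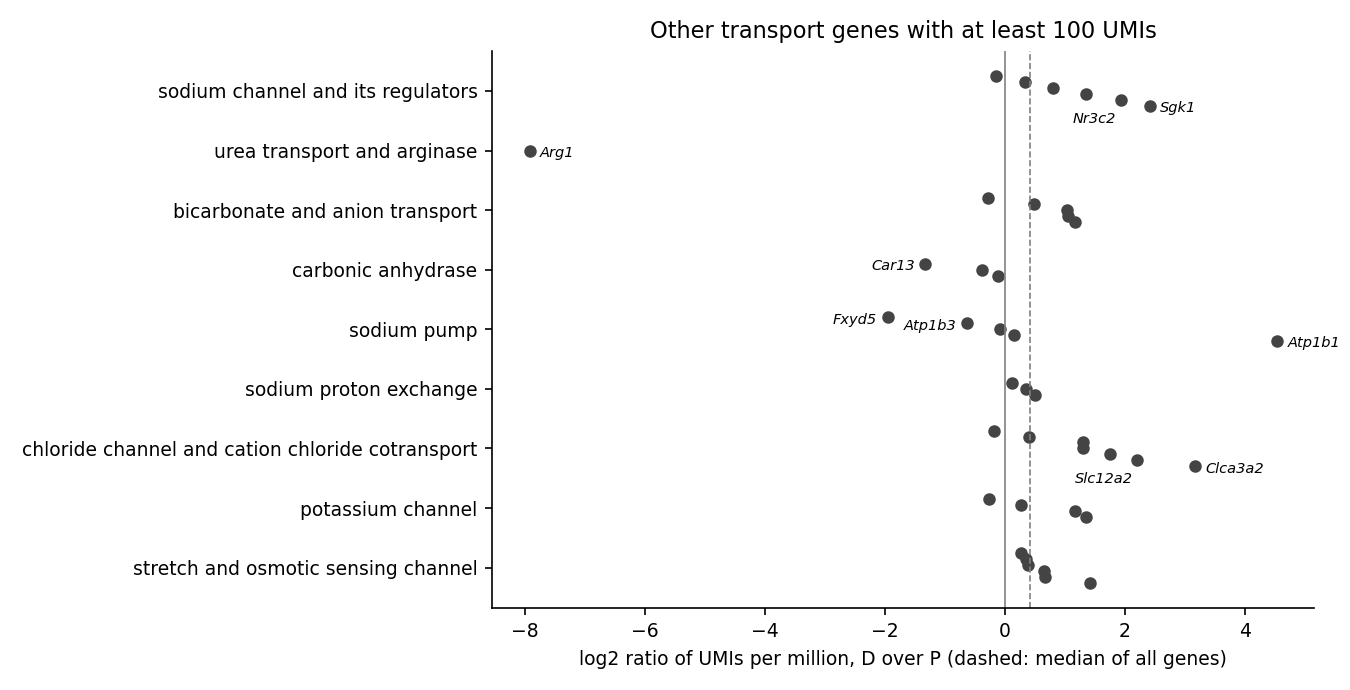
Log2 ratio of the level in D over that in P for the 40 other transport genes with at least 100 UMIs, by group; the solid line is 0 and the dashed line the median of all genes (0.42). Atp1b1 at 4.54 and Arg1 at -7.92 lie farthest out, and the other 38 lie between Fxyd5 at -1.95 and Clca3a2 at 3.18.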

How the data were processed

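The authors processed reads with bcl2fastq 2.19.0 and Cell Ranger 3.0.2 on GRCm38/mm10 and deposited matrices of UMI counts per gene and barcode, not normalized. Members and gene lists were chosen with earlier results of these data known. Of 8194 barcodes in P and 6975 in D, cells with over 800 genes and at most 12% mitochondrial UMIs were kept, and 26681469 and 20305621 UMIs remained. Counts were summed per library, cluster or cell class and divided by their total (Python 3.11.15, SciPy 1.17.1). Intervals are exact Poisson, binomial or conditional binomial, at 95%. With 1 library per group no p-value was computed, and a gene with at least 100 UMIs was called at a 2-fold ratio. For shares and scores each cell was thinned to 2100 UMIs, which left out 180 cells in P and 479 in D. List-low cells had at most the 25th percentile of list UMIs, and list-high cells at least the 75th and more than the low limit. Clusters came from Seurat 5.3.0 in R 4.3.3 (2000 variable genes less the transport genes, 25 components in P and 21 in D, resolution 0.2). Scrublet, through scanpy 1.11.5, called 0 doublets in both libraries and so had not worked. No doublets were removed. Named genes were the 9 members, 8 family partners, the 5 list genes with the largest ratio in each direction, the 3 genes most alike to each member and the 5 leading genes of each cluster. Gene positions are those of GENCODE vM21. The summing and calling were tested on simulated data.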

Additional observations from a re-analysis of the deposited data

Results flagged for a closer look

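Barcodes left out by the limits on genes and mitochondrial UMIs entered none of the main comparisons (only the alternatives with looser or no limits) and still held UMIs of the 9 genes, 861 over 1376 barcodes in P and 470 over 2079 barcodes in D. Per 1000000 non-mitochondrial UMIs this was 432 [404, 462] in P, beside 442 in the kept cells, and 227 [207, 248] in D, beside 262.5 in the kept cells. Some genes differed beyond counting error between the left-out barcodes and the kept cells. In P, Car12 stood at 128 [113, 145] in the left-out barcodes and 64.9 in the kept cells, and Aqp4 at 87.3 [74.9, 101] and 154. In D, Aqp3 stood at 108 [94.0, 123] and 144, whereas Slc4a4, at 44.4 [35.8, 54.5] and 40.2, showed no difference beyond counting error.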

How the results depend on the processing

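No paired analysis was possible because each group holds 1 library. The ratio of D over P kept its sign for 6 genes with at least 100 UMIs under every alternative run, from -7.11 to -6.26 on the log2 scale for Car12, -4.56 to -3.30 for Scnn1b, -2.95 to -2.31 for Aqp4, -0.69 to -0.25 for Aqp3, 2.30 to 3.06 for Slc4a4 and 2.32 to 2.91 for Scnn1a. That of Slc14a1 went from -0.06 to 0.43 and that of Car2 from -0.52 to 0.14. With cells thinned to equal depth, 1 member was called higher in D and 2 in P, since Scnn1a and Scnn1b fell under 100 UMIs. Scnn1b also fell under it with the stricter cell limits and without the 6% of cells with the highest doublet score, which left 2 higher in P. Of the transport list, 7 genes were higher in D with scaling by the median ratio and 9 without mitochondrial and ribosomal protein genes, and 6 were higher in P at a minimum of 20 UMIs. Of 124 contrasts between list-high and list-low cells under the alternatives, 9 lay outside the counting interval of the value reported, among them Car12 in the squamous contrast of P (-3.86 at the 10th and 90th percentiles) and Scnn1b in the basal contrast of P (3.17). The planned removal of called doublets gave no value, since none was called. In its place, and chosen after seeing the data, 409 cells in P and 294 in D with the highest scores were left out. A resolution of 0.4 was also added. The highest cluster of a member was the same in 13 of 14 cases with the transport genes among the clustering features, 14 without the high-score cells and 12 at resolution 0.4. The exceptions were Car12 in P, in 2 settings, and Scnn1a in P. Depth limits Aqp5, Scnn1b in D and Scnn1a in P, and with 1 library per condition the spread between cultures is unknown.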
